A study of Mus musculus with 3 samples.

Results

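The genes that encode the proteasome and immunoproteasome were described in cytosolic RNA of bone-marrow-derived macrophages from C57BL/6J mice, in 3 total RNA-seq libraries. Members were all genes whose symbol begins with Psma, Psmb, Psmc, Psmd, Psme, Psmf or Psmg and that have at least 1 protein_coding transcript, which gave 50 of 55536 annotated genes. All libraries belong to 1 group. The cells had received 100 ng/ml Lipid A for 12 h, spent 12 h after washout, and were then given 100 ng/ml Lipid A again for 30 min before cytosolic RNA was taken, with 1 µg of RNA entering each library. They are numbered as biological replicates 1 to 3 and carry the same donor entry, so SDs and p-values cover the spread among these 3 samples and that spread may be technical. Untreated cells and other times or fractions were not analysed here, so every comparison is made between genes within a library, and none is a response to Lipid A.

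The 26S proteasome is the main ATP-driven protease of the cytosol and nucleus. Its barrel, the 20S core, has outer rings of alpha subunits and inner rings of beta subunits, of which Psmb5, Psmb6 and Psmb7 carry the proteolytic sites, and the 19S particle that caps it recognises ubiquitin, removes it and unfolds the substrate with a ring of ATPases. In cells that have met interferon the immunosubunits Psmb8, Psmb9 and Psmb10 are built into new cores in place of Psmb5, Psmb6 and Psmb7, and the activator made of Psme1 and Psme2 opens the core, changes that are known for shaping the peptides that macrophages present on class I molecules.

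Depth over annotated genes was 28759407, 54709008 and 49878183 expected counts in replicates 1, 2 and 3. The lowest count of any detected member in a library was 129, so counting error was small for nearly all members. Intervals and floors from counts cover counting error only. The members together took 0.439 ± 0.0190% of expected counts and 0.857 ± 0.0250% of the TPM of protein-coding genes (SD, n = 3). TPM, a length-corrected share of all transcripts, is the scale of every level below unless another is named. The 8 macrophage markers were detected in all libraries and none of the 25 markers of T and NK cells, B cells, neutrophils, dendritic cells, mast cells, stroma or erythroid cells was, the highest of these averaging 0.0767 TPM. In bulk samples, fewer cells that express a gene and less RNA per cell cannot be told apart.

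A gene was called detected at 1 TPM or more in every library. 47 of the 50 members passed, beside 17.2% of all annotated genes and 41.2% of nuclear protein-coding genes. The median over detected members was 35.2 TPM, against 8.11 TPM over all detected genes. The members below the line were Psma8, Psmb11 and Psmc3ip. Psma8, a testis form of an alpha subunit, had 0.64, 0.78 and 0.32 TPM in replicates 1 to 3. Psmb11, the catalytic subunit of thymus epithelium, had 0 counts in all libraries in the first quantification. A floor of 3 counts, set for a count of 0, would be 0.104, 0.0548 and 0.0601 CPM (counts scaled to an equal library total). In the second deposited quantification Psmb11 had 0.0157, 0.0114 and 0.0199 TPM. Psmc3ip had 0.45, 0.68 and 0.60 TPM. Psmc3ip shares the prefix but encodes a meiotic recombination factor, not a proteasome subunit. The nearest members above the line were Psmg1, with 3.31, 4.22 and 3.23 TPM, and Psmg2, with 4.24, 4.10 and 3.75 TPM.

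**Figure D1:**
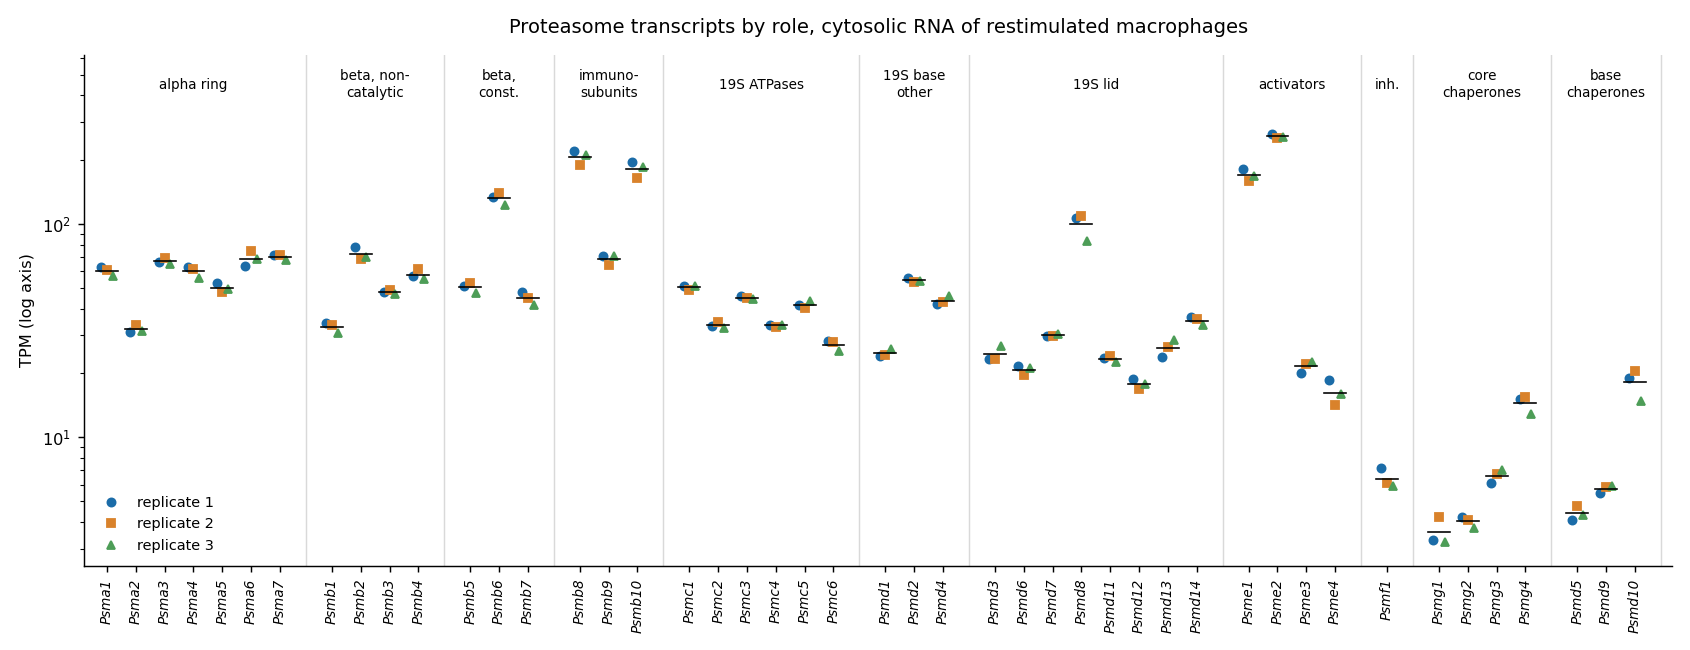
TPM (log axis) of 46 detected members in each library, grouped by role, with points for replicates 1 to 3 and a bar at the mean; Psme2b, a copy of Psme2, is not drawn. Psme2, Psmb8, Psmb10 and Psme1 stand highest, and most assembly chaperones and the inhibitor Psmf1 stand lowest.

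The 7 subunits of the alpha ring, which gates entry to the core, had a median of 60.5 ± 2.86 TPM (SD, n = 3). Psma7 averaged 70.2 ± 2.20 TPM, Psma6 68.7 ± 5.72 TPM and Psma3 66.8 ± 2.08 TPM. Psma1 averaged 60.3 ± 2.73 TPM, Psma4 60.1 ± 3.60 TPM and Psma5 50.1 ± 2.35 TPM. Psma2 had 31.0, 33.7 and 31.6 TPM, which on TPM of all transcripts lay below every library of the other alpha genes. With protein_coding transcripts alone it did not stand apart, at 32.1 ± 1.39 TPM beside 31.6 ± 1.79 TPM for Psma3. On TPM of all transcripts, the highest mean in the ring was 2.18 times the lowest. These subunits are assembled in equal numbers, so the range is one of transcripts, measured on TPM.

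The beta subunits without a proteolytic site had a median of 52.9 ± 2.13 TPM. Psmb2 averaged 72.1 ± 5.22 TPM, Psmb4, which completes the inner ring, 57.8 ± 3.18 TPM, Psmb3 48.0 ± 1.11 TPM and Psmb1 33.0 ± 1.97 TPM. Within each library the alpha ring's median lay above that of these beta subunits by 0.25, 0.17 and 0.17 on the log2(TPM + 1) scale, a mean of 0.20 ± 0.05. The order of the medians held in all libraries, but the lists overlapped. By mean, Psmb2 lay above every alpha gene and Psma2 below every gene of the beta list. Psma2 and Psmb1 did not differ beyond their spread.

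The constitutive catalytic subunits did not sit at one level. Psmb6, the caspase-like site, had 134, 139 and 122 TPM in replicates 1 to 3. Psmb5, the chymotrypsin-like site, had 51.0, 52.7 and 47.6 TPM, and Psmb7, the trypsin-like site, 47.8, 44.9 and 41.7 TPM. Psmb6 was the most abundant of the 14 constitutive core genes in every library and was 2.94 times Psmb7 by mean.

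Among the immunosubunits, Psmb8, which replaces Psmb5, had 221, 190 and 210 TPM. Psmb10, which replaces Psmb7, had 196, 164 and 184 TPM. Psmb9, which replaces Psmb6, had 70.6, 64.5 and 71.0 TPM. On TPM of all transcripts, Psmb8 and Psmb10 were thus above all constitutive core genes in every library, while Psmb9 lay among them. This ranking was lost with protein_coding transcripts alone. Psmb8 then averaged 107 ± 8.51 TPM and Psmb10 68.8 ± 5.39 TPM, both below Psmb6 by mean, at 111 ± 7.03 TPM. In mm10 with GENCODE M21, Psmb8 spans chr17:34197721-34201454 (+ strand), Psmb9 chr17:34181987-34187764 (- strand) and Psmb10 chr8:105935735-105938444 (- strand).

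These were compared site by site as differences of log2(TPM + 1) within each library. A difference was called when its sign was the same in all libraries and its mean exceeded 3 SD; the two-sided exact sign-flip permutation test over libraries gave p = 0.25 for each, the smallest p that 3 libraries can give. Psmb8 exceeded Psmb5 by 2.09, 1.83 and 2.12 in replicates 1 to 3, a mean of 2.01 ± 0.16 or 4.03-fold. Psmb10 exceeded Psmb7 by 2.01, 1.85 and 2.12, a mean of 1.99 ± 0.14 or 3.98-fold. Psmb9 was lower than Psmb6 in every library, with differences of -0.92, -1.10 and -0.77, a mean of -0.93 ± 0.16. As shares of a pair's TPM, Psmb8 made 80.3 ± 1.81% of Psmb8 and Psmb5, Psmb10 made 80.1 ± 1.52% of Psmb10 and Psmb7, and Psmb9 made 34.3 ± 2.57% of Psmb9 and Psmb6. Psmb9 and Psmb6 thus ran opposite to the other pairs at the RNA level.

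The size of these differences depended on how transcripts and lengths were counted. With protein_coding transcripts alone, an alternative chosen after seeing the data, Psmb8 exceeded Psmb5 by 1.07 ± 0.16, Psmb10 exceeded Psmb7 by 0.61 ± 0.12 and Psmb9 over Psmb6 was -0.81 ± 0.16. With expected counts divided by the length of all annotated exons, also chosen after seeing the data, Psmb8 over Psmb5 was 0.41 ± 0.17 and no longer exceeded 3 SD, Psmb10 over Psmb7 was 2.24 ± 0.12 and Psmb9 over Psmb6 was -1.25 ± 0.17. The exons annotated for Psmb8 span 3381 bases and those of Psmb5 899 bases, so this measure lowers Psmb8 by construction. Those of Psmb10 span 1705 bases and of Psmb7 3421, and those of Psmb9 3660 and of Psmb6 1872. By construction, the measure thus also raises Psmb10 against Psmb7 and lowers Psmb9 against Psmb6. The median of the immunosubunits, 181 ± 16.0 TPM, against that of the constitutive sites, 50.4 ± 2.59 TPM, differed by 1.82 ± 0.18 on the log2 scale. With list means in place of medians the difference was 1.02 ± 0.15, still called. The difference of medians became 0.44 ± 0.16 with protein_coding transcripts alone and 0.41 ± 0.17 with counts per exon length, neither past 3 SD. Signs were the same under all 4 measures.

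**Figure D2:**
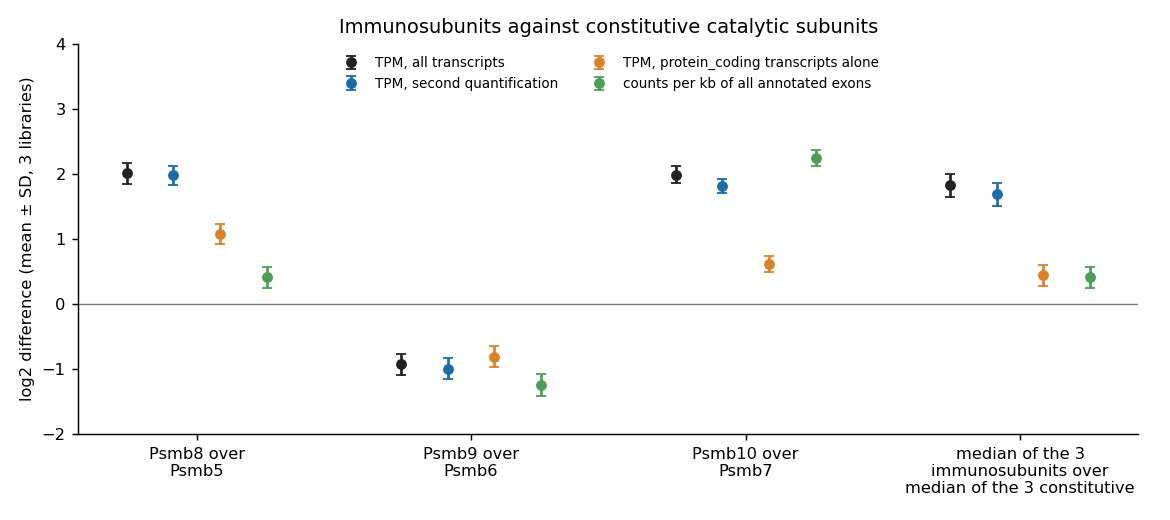
Differences of log2(TPM + 1), or of log2(value + 1) of counts per kb scaled like TPM, between each immunosubunit and the constitutive subunit it replaces, and between the medians of the lists (mean ± SD, 3 libraries), under 4 ways of measuring a gene. Psmb8 and Psmb10 lie above 0 and Psmb9 below 0 under each, while the sizes for Psmb8 and Psmb10 range from 0.41 to 2.24.

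The TPM of Psmb8 and Psmb10 was divided among RNAs of several annotated types. Psmb8 was split between Psmb8-203, a protein_coding transcript of 840 bases with 111, 96.7 and 105 TPM, and Psmb8-205, a retained_intron transcript of 1234 bases with 103, 89.4 and 100 TPM. By expected count Psmb8-205 was the larger, with 4929, 9047 and 8589 counts, against 3239, 5977 and 5515 counts for Psmb8-203. In the second deposited quantification the gene's protein_coding share was 51.6 ± 0.42%, beside 52.0 ± 0.61% in the first. The transcripts differ at more than the intron: Psmb8-205 starts 649 bases later and runs 245 bases further at the 3′ end, so the intron is not the only stretch that tells them apart.

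The kept intron is 190 bases at chr17:34199381-34199570 (mm10, + strand), between coding exons. These lines give the spliced junction, with the next exon in capitals, and both ends of the intron as kept in Psmb8-205, with its bases in capitals, since these are the letters that set the 2 forms apart. They were read from the GENCODE M21 transcripts.
Psmb8-203 spliced: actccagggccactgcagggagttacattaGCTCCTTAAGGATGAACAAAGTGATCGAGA
Psmb8-205 intron start: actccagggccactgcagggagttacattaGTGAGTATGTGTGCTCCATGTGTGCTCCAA
Psmb8-205 intron end: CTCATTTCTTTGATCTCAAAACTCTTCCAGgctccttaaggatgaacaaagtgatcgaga

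For Psmb10 the most abundant transcript by TPM was Psmb10-203, a processed_transcript of 426 bases in 4 exons at the 3′ part of the gene, with 94.8, 82.3 and 94.4 TPM. Psmb10-201, the protein_coding form of 1311 bases in 8 exons, had 73.8, 63.1 and 69.6 TPM. By expected count the order turned round: Psmb10-203 had 893, 1705 and 1669 counts, against 3815, 6866 and 6405 counts for Psmb10-201. The protein_coding share of Psmb10's TPM was 38.0 ± 0.42% in the first and 44.6 ± 2.97% in the second quantification. Psmb9 was assigned mostly to protein_coding transcripts, 91.0 ± 1.58% of its TPM in the first and 80.5 ± 3.52% in the second quantification.

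In the first quantification, Psmb10 alone of the 47 detected members had a most abundant transcript not of type protein_coding, 1 of 47 beside 4.83% of detected nuclear protein-coding genes. 4 of the 47 had under 70% of TPM in protein_coding transcripts, beside 11.9% of those genes, so neither count was above the background. Besides Psmb10, these were Psma3 at 47.3 ± 3.39%, Psmb8, and Psmd13 at 61.6 ± 2.96%. Psma3's remainder was retained_intron, 29.3 ± 1.85%, and nonsense_mediated_decay, with Psma3-201 at 21.6 ± 2.04%; Psmd13's was mainly the nonsense_mediated_decay transcript Psmd13-211 at 33.5 ± 4.78%. The median protein_coding share of TPM was 98.8% over detected members, beside 97.5% over detected nuclear protein-coding genes. In the second quantification the most abundant transcript of Psma3 was also not protein_coding, the retained_intron form Psma3-203, which made 2 of 47 beside 5.72% of those genes. Psmc6 joined the members under 70%, with 63.2 ± 6.64% in the second quantification and 89.2 ± 4.10% in the first, which made 5 of 47 beside 13.8%.

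**Figure D3:**
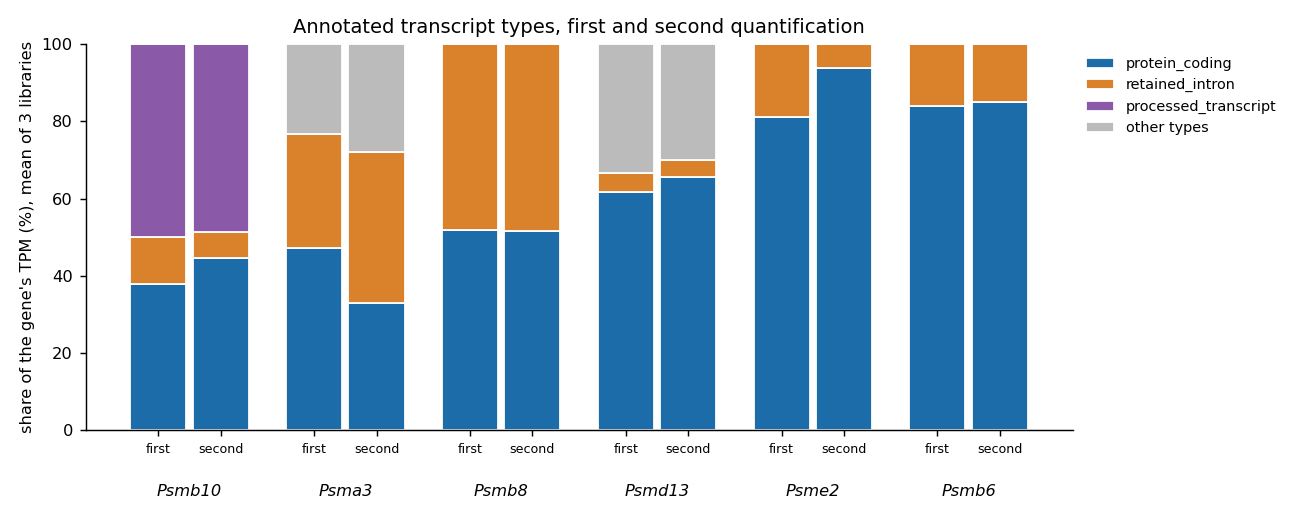
Share of each gene's TPM by annotated transcript type (%, mean of 3 libraries) in the first and second deposited quantification, for the 6 detected members with the lowest protein_coding share in the first. Psmb8 is split nearly evenly between protein_coding and retained_intron in both, and processed_transcript is the largest type of Psmb10 in both.

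The activators of the core spanned the widest range of any role, with the highest mean 15.9 times the lowest. Psme2 had 262, 253 and 255 TPM and was the most abundant member in every library. Psme1, its partner in the interferon-inducible activator, had 180, 158 and 168 TPM, lower than Psme2 with differences of -0.54, -0.67 and -0.60 on the log2(TPM + 1) scale, a mean of -0.61 ± 0.07. This difference shrank to -0.40 ± 0.07 in the second quantification and to -0.41 ± 0.05 with protein_coding transcripts alone. With counts per length of all exons it was -0.45 ± 0.04, and it was called under each. Psme3, the nuclear relative, had 20.0, 21.9 and 22.6 TPM, and Psme4, a large single-chain activator, 18.5, 14.1 and 16.0 TPM. Psme1 exceeded Psme3 by 2.91 ± 0.17 and Psme4 by 3.31 ± 0.09. With counts per length of all exons the first of these was 1.87 ± 0.14 and the second 2.48 ± 0.10, smaller by over 1.5 times on a linear scale, and still called. The inhibitor Psmf1, which binds the ends of the core, had 7.16, 6.13 and 5.88 TPM.

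Psme2b, a single-exon gene on chromosome 11, had 37.5, 20.8 and 32.0 TPM, and its level cannot be taken as its own. Its transcript matched Psme2-208, from chromosome 14, over 794 bases with 5 mismatches and no gap, an identity of 99.4%. It took 10.4 ± 2.53% of the TPM of the pair in the first quantification and 18.5 ± 4.30% in the second, and its posterior SD was 0.480% of its count at most, the highest of the detected members. The following 90 bases, from position 652 of Psme2-208 and position 526 of Psme2b-201, hold 3 of the 5 mismatches, in capitals, and show how little sequence separates the genes.
Psme2-208: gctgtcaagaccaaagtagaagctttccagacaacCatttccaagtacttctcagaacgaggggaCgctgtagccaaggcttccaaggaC
Psme2b-201: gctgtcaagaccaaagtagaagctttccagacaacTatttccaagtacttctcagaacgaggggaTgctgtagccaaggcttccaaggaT

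Near-identical copies were assigned few counts elsewhere in the first quantification. At 95% identity over 80% of the shorter transcript, 10 members had a copy in the annotation, and only for Psme2 and Psme2b did copies hold over 1% of the joint expected count. For Psma3 the pseudogene Gm13835, identical over 685 bases, held 0.975%. The quantification itself splits reads between identical stretches, so these counts cannot show how much a copy mattered. Overlap with other genes touched 15 members, in 12 of 16 pairs on the opposite strand, and whether counting used strand is not given in the sources used here. In 5 members the overlapping gene had over 10% of the member's count: Psmb9 with Tap1 over 212 bases, Psmb7 with Nek6 over 405 bases, Psmc3 with Slc39a13 over 215 bases, Psmc3ip with Mlx over 385 bases and Psme2b with 9930111J21Rik1 over 41 bases. Values of these members are uncertain to that extent. No detected member differed by over 1 on the log2 scale between the quantifications, once the general difference was taken off, beside 1.71% of all detected genes.

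The 19S particle was lower than the core. Its 17 subunits had a median of 32.8 ± 0.442 TPM, against 58.8 ± 2.95 TPM for the 14 constitutive core genes, a log2 difference of -0.83, -0.87 and -0.76 in replicates 1 to 3 and a mean of -0.82 ± 0.06. It shrank to -0.43 ± 0.02 with counts per length of all exons and kept its sign and its call. The ranges of the lists overlapped, since Psmd8, a lid gene, had 106, 109 and 83.3 TPM.

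The ATPases, the ring that threads substrates into the core, lay within 1.86 times of each other. Psmc1 averaged 50.5 ± 1.23 TPM, Psmc3 45.1 ± 0.862 TPM and Psmc5 41.9 ± 1.44 TPM. Psmc2 averaged 33.5 ± 1.26 TPM, Psmc4 33.4 ± 0.477 TPM and Psmc6 27.1 ± 1.64 TPM. Psmc2 and Psmc4 did not differ beyond their spread. Of the other base subunits, the scaffold Psmd2 averaged 54.3 ± 1.14 TPM, the ubiquitin receptor Psmd4 43.7 ± 2.11 TPM and the scaffold Psmd1 24.8 ± 1.01 TPM.

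The 8 lid subunits had a median of 25.5 ± 2.04 TPM, below the ATPases by a log2 difference, ATPases over lid, of 0.55 ± 0.10. Psmd8 averaged 99.5 ± 14.1 TPM, 5.58 times the lowest lid gene, Psmd12, at 17.8 ± 1.01 TPM. Psmd14, the deubiquitinase of the lid, averaged 35.2 ± 1.51 TPM, and Psmd7, its partner, 30.1 ± 0.462 TPM. Psmd13 averaged 26.2 ± 2.40 TPM, Psmd3 24.5 ± 2.04 TPM, Psmd11 23.4 ± 0.819 TPM and Psmd6 20.7 ± 1.02 TPM. Apart from Psmd8, the lid genes thus lay between 17.8 and 35.2 TPM.

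Assembly chaperones, which help build the particles and then leave, had low levels. Psmg4 averaged 14.5 ± 1.39 TPM, Psmg3 6.61 ± 0.451 TPM, Psmg2 4.03 ± 0.252 TPM and Psmg1 3.59 ± 0.550 TPM. Their median was below that of the core genes, with a difference of -3.27 ± 0.06 on the log2(TPM + 1) scale. The chaperones of the base were Psmd10 at 18.1 ± 2.91 TPM, Psmd9 at 5.74 ± 0.236 TPM and Psmd5 at 4.39 ± 0.352 TPM. Pomp, the maturation factor that is used up as each core is completed, lies outside the prefix rule and averaged 91.1 ± 8.95 TPM, above all of these chaperones.

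The median coefficient of variation of TPM was 5.64% over detected members, against 9.76% over all detected genes, which were less abundant. Counts were tested for equal abundance across libraries by a chi-square test given TMM-scaled library sizes, Benjamini-Hochberg adjusted over 13410 genes. 39 of 49 members tested differed beyond counting noise, beside 66.2% of all genes tested. The 10 that did not were Psma5, Psmc1, Psmc4, Psmc5, Psmd6, Psmd9, Psmd12, Psmg2, Psmg3 and Psmc3ip. By edgeR's dispersion, expressed as a coefficient of variation beyond counting error, the median member had 10.8%, against 13.6% over all genes. Relative to the trend of dispersion on abundance the medians were close, 0.814 for members and 0.841 for all genes. Psme2b, Psmd10, Psma8 and Psmd8 had the most spread for their level, at 1.96, 1.44, 1.36 and 1.19 times the trend of dispersion on abundance.

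In CPM scaled by TMM, 30 of the 49 members were lowest in replicate 3, beside 36.2% of all genes tested. Of the 14 constitutive core genes, 12 were lowest in replicate 3 and none in replicate 2. Psmb6 had 124, 140 and 116 CPM in replicates 1 to 3, and Psmb5 had 57.2, 64.0 and 54.2 CPM. The immunosubunits ran differently: all 3 were lowest in replicate 2, as 5 of the 49 members and 29% of all genes tested were. Psmb8 had 304, 280 and 292 CPM, Psmb10 183, 167 and 175 CPM, and Psmb9 108, 99.4 and 100 CPM. The genes of the interferon-inducible activator did not share this order in CPM and were lowest in replicate 3. Psme1 had 252, 244 and 241 CPM and Psme2 280, 271 and 256 CPM. In TPM, however, Psme1 had 180, 158 and 168 and Psme2 262, 253 and 255. On that scale both were lowest in replicate 2, like the immunosubunits and 42.9% of all detected genes. Their order thus depended on the scale. In CPM, the median log2 ratio of replicate 2 to the mean of the other libraries was -0.09 for the immunosubunits and 0.15 for the constitutive core. These are small differences between 3 samples, given as a description.

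Genes of the class I pathway outside the prefix rule were read in TPM, another scale than the CPM above. Of the 5 listed, 4 were lowest in replicate 2, beside 42.9% of all detected genes. Tap1 and Tap2, which carry peptides into the endoplasmic reticulum, had 94.0, 74.9 and 96.7 TPM and 39.0, 27.1 and 38.5 TPM. Tapbp had 337, 275 and 348 TPM, and Nlrc5, the transactivator of class I genes, 34.3, 22.0 and 31.7 TPM. B2m, the class I light chain, had 3923, 3387 and 3027 TPM and was lowest in replicate 3, as was Irf1, a transcription factor induced by interferon, at 118, 80.5 and 69.7 TPM. Protein-coding genes took 30.0, 27.9 and 29.4% of TPM in replicates 1 to 3, the lowest share in replicate 2. On this scale 4 of the 8 macrophage markers were also lowest in replicate 2: Itgam had 32.6, 19.4 and 42.8 TPM, Fcgr1 285, 164 and 242 TPM, Csf1r 135, 101 and 155 TPM, and Adgre1 607, 570.2 and 718 TPM. The part of either in the class I values was not tested.

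**Figure D4:**
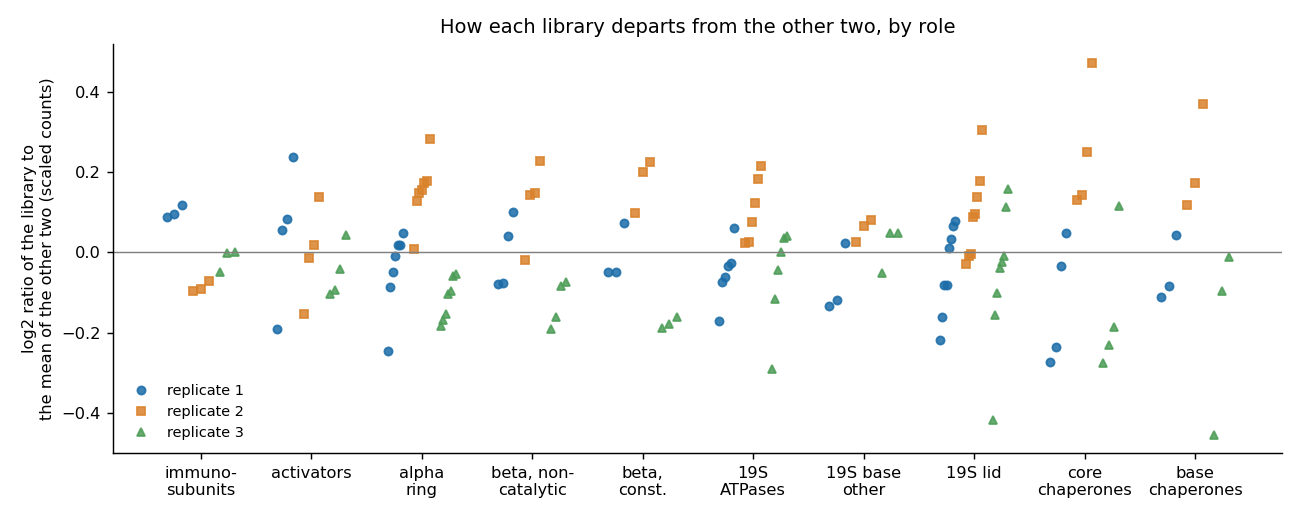
Log2 ratio of scaled counts in each library to the mean of the other libraries, 1 point per member and library, by role. Replicate 2 lies below 0 for the 3 immunosubunits and above 0 for 13 of the 14 constitutive core genes, whose replicate 3 points lie below 0.

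The wider pathway was fully expressed where it could be read. Of 36 listed symbols, 34 were matched in the annotation and all 34 genes were detected, beside 41.2% of nuclear protein-coding genes. Among other subunits and assembly factors, Sem1, a small lid protein, averaged 37.0 ± 1.61 TPM and Akirin2, a nuclear import factor for proteasomes, 13.7 ± 1.19 TPM. The deubiquitinases that visit the 19S particle, Usp14 and Uchl5, averaged 16.7 ± 0.193 TPM and 10.5 ± 0.251 TPM. The ubiquitin gene Ubb averaged 345 ± 52.6 TPM, and the activating enzyme Uba6 3.30 ± 0.208 TPM.

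Vcp, the segregase that pulls ubiquitylated proteins out of complexes, averaged 58.5 ± 4.65 TPM, the shuttle Rad23b 27.0 ± 1.65 TPM and the shuttle Ubqln2 6.08 ± 0.878 TPM. Of the transcription factors known to act on these genes, Irf1 averaged 89.5 ± 25.6 TPM and Nfe2l1, which raises proteasome genes when the protease is impaired, 62.4 ± 8.60 TPM. Erap1, which trims peptides after transport, was the lowest of the class I list at 18.8 ± 1.55 TPM. All of these levels are RNA in the cytosol and say nothing of protein activity.

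Several interferon-inducible members lie beside genes of their own kind. On chromosome 17 Psmb8 and Psmb9 are 9956 bases apart with Tap1 between them, 495 bases from Psmb8 and overlapping Psmb9 by 212 bases, and on chromosome 14 Psme1 and Psme2 are 5911 bases apart. Psmb5 and Psmb11 lie 3410 bases apart on chromosome 14, and averaged 50.4 TPM and 0 TPM.

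Promoter windows of 300 bases, 250 before and 50 after the RefSeq start (GRCm38.p6, the same build), were matched for 42 members in 45 windows. Sets of letters were searched on both strands: AANNGAAA for IRF factors, TTCNNNGAA for STAT factors, GCGCATGCG for NRF1, TGACNNNGC for the antioxidant element of Nfe2l1 and Nfe2l2, CCAAT for NFY, CCGGAAG for ETS factors and TATAAA for a TATA box. A match is a run of letters and not a bound site, and no match says only that these letters are not in this window. ETS letters were in 35.6% of members' windows, against 8.86% of all 32851 windows. The shares for the others were 28.9% against 23.9% for IRF, 6.67% against 8.30% for STAT, 4.44% against 1.75% for NRF1, 13.3% against 12.4% for the antioxidant element, 33.3% against 37.4% for NFY and 8.89% against 13.6% for the TATA box. The members' windows had a median GC content of 57.3%, against 52.7% over all windows, and the part of base composition in these shares was not tested.

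**Figure D5:**
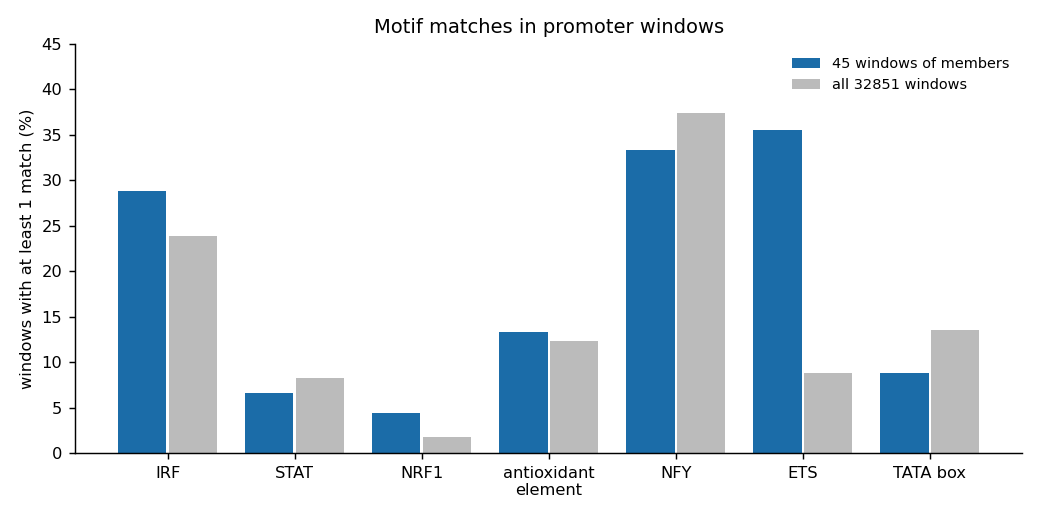
Percent of promoter windows with at least 1 match on either strand, for the members' 45 windows and for all windows. ETS letters stand apart, in 35.6% of members' windows and 8.86% of all windows.

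Of the ETS windows, 10 belonged to 9 genes of the 19S particle, of 14 with a window, and 1 to the alpha ring, and none of the catalytic subunits, constitutive or inducible, with a window held the letters. Psma6, the most abundant member whose window held them, had 3 matches within 300 bases. The antioxidant letters were in the windows of Psmb5 and Psmb6, both of the constitutive catalytic genes with a window. Of the inducible genes, Psmb8 held a STAT match, Psme1 a pair of overlapping IRF matches, Psmb9 an NFY match, and Psmb10 and Psme2 none of the 7.

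Windows are shown for the inducible genes with a match, for Psmb5 and Psmb6, which Psmb8 and Psmb9 replace, and for Psma6, with all matches to the 7 motifs in capitals and the strand in parentheses. The start site is position 0. In Psmb8 the STAT letters begin at position -97 and TATAAA at -237; in Psme1 the IRF letters begin at 9 and 15; in Psmb5 the antioxidant letters begin at -47 and in Psmb6 at -9, with IRF letters at -70. For Psmb8 and Psmb9 the most abundant protein_coding transcript begins 474 and 434 bases upstream of the window's start site, so these windows lie downstream of those transcripts' starts. For Psme1 it is Psme1-208, which begins 134 bases upstream of the window's start site, so the window includes that start and the IRF letters lie downstream of it. No 2 different motifs overlap in the windows printed.
Psmb8 chr17:34197945-34198244 (+): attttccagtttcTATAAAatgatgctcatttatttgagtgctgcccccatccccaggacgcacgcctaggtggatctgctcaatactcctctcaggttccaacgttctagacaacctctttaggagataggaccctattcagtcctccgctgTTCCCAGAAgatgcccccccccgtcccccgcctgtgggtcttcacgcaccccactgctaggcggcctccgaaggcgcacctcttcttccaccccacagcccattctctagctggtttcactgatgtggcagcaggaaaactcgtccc
Psmb9 chr17:34187281-34187580 (-): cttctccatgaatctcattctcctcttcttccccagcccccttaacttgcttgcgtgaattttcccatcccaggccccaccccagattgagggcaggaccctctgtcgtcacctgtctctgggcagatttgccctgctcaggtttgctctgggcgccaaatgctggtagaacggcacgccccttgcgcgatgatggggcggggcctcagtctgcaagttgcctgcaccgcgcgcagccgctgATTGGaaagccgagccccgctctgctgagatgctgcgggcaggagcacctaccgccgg
Psme1 chr14:55578244-55578543 (+): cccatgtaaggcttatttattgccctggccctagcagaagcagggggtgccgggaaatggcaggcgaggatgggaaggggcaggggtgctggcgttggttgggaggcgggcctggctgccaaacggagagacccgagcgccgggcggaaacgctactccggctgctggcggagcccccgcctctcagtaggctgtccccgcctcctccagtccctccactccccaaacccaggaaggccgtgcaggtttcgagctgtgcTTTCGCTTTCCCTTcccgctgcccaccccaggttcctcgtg
Psmb5 chr14:54617946-54618245 (-): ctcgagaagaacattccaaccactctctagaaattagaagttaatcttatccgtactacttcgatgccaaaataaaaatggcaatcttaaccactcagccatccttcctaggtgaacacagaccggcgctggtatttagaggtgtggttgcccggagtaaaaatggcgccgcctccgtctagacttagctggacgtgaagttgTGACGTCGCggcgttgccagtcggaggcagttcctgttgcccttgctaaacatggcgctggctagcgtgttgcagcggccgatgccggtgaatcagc
Psmb6 chr11:70525107-70525406 (+): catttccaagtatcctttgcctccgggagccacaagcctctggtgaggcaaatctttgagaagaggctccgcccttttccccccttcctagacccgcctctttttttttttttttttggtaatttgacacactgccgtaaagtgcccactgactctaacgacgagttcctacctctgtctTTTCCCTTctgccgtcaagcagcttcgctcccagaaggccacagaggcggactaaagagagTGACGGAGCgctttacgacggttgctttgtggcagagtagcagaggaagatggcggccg
Psma6 chr12:55398575-55398874 (+): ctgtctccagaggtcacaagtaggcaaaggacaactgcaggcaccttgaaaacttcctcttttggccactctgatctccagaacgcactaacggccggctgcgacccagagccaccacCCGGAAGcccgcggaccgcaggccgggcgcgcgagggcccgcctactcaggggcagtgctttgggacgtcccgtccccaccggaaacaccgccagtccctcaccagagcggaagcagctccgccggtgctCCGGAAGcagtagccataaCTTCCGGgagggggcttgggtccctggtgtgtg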

How the data were processed

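Ribosomal-RNA-depleted total RNA of the cytosolic fraction was sequenced in 3 libraries, per the labels. Per the file headers, the authors deposited expected count, TPM and a posterior SD per gene and per transcript. A second deposited transcript table holds an estimated count and TPM from another quantification. The labels give mm10. Only entries whose gene identifier is in GENCODE M21 were kept. Entries outside it held 0.774, 0.207 and 0.167% of expected counts in replicates 1 to 3 and were left out. Tools, versions and strandedness: not given in the sources used here. Expected counts were rounded for tests.

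Within-library differences of log2(TPM + 1) were called past 3 SD. A chi-square test across libraries used TMM sizes from edgeR 4.0.16 (R 4.3.3) where the mean count reached 10, Benjamini-Hochberg adjusted p-value under 0.05; edgeR gave dispersions, with DESeq2 1.42.0 size factors as an alternative. Both were tested on simulated data. Copies were found with blastn 2.17.0. All members are named; of each pathway list, the 2 highest and the lowest, with Tap1, Tap2, Nfe2l1, Irf1 and Pomp; some of these are not reported here. Members, lists and tests were chosen with earlier results of these data known.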

Additional observations from a re-analysis of the deposited data

How the results depend on the processing

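Each of the 11 within-library differences kept its sign under a pseudocount of 0.1, the second quantification, TPM rescaled to nuclear protein-coding genes, the 2 measures added after seeing the data and each library left out, as did the 5 differences between lists with list means. Calls were lost for Psmb8 over Psmb5 with counts per kb of all exons (0.41) and for the immunosubunit median over the constitutive one with protein_coding transcripts alone (0.44) and with counts per kb (0.41), where transcript choice and exon length enter by construction. The median dispersion of members was 10.7% with DESeq2 size factors, 11.0% with no filter, and between 10.3% and 12.2% with each library left out. No member differed by over 1 (log2) between quantifications, beside 1.71% of all detected genes; at 0.5, 1 did, Psme2 at -0.51, beside 5.13% of all, with Psme2b at 0.47. Without replicate 1, 2 or 3, the members beyond counting noise numbered 30, 27 and 32 of 49, beside 53.2%, 44.3% and 44.2% of all genes tested. Leaving out a library assumes that the remaining pair varies like the whole. Depth limits Psma8, Psmb11 and Psmc3ip most. No paired analysis was possible because there is 1 group.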
